A study of Arabidopsis thaliana with 12 samples.

Results

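Among the 23396 genes in the count table, 123 were induced by flg22 in normoxia and less abundant in hypoxia/flg22, and their data are given here. A read count was divided by its column sum, scaled to counts per 1000000 counts of its sample (CPM) and raised by 0.5. Genes were kept with a mean count of 50 or more in normoxia/flg22 (NF) where, in each of the 3 same-numbered replicate sets, NF was at least 1.5 times normoxia/mock (NM) and hypoxia/flg22 (HF) was at most 0.75 times NF. This choice uses the same samples that are described below, so the values of NF against NM, HF against NF and HF against NM are a description of the chosen genes and carry no test. Comparisons with hypoxia/mock (HM) involve 3 samples that the choice did not use.

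All plants were wild-type Arabidopsis thaliana of accession Col-0, as whole seedlings grown in continuous light on 0.5xMS medium. On day 10 they received 100 nM flg22 or the same volume of water (mock), either at ambient oxygen (normoxia) or in anaerojars (hypoxia), and were harvested after 1 h. The 4 groups NM, HM, NF and HF hold 3 biological replicates each, and a replicate is a pool of 5 seedlings, so tissues were not separated. In such bulk samples, fewer cells of a type and less RNA per cell cannot be told apart. The peptide flg22 is a fragment of bacterial flagellin. It binds the receptor kinase FLS2 at the cell surface, and the receptor complex starts pattern-triggered immunity, with calcium influx, an oxidative burst, MAP kinase activity and the transcription of many receptor, kinase and defence genes. WRKY transcription factors take part in that transcription by binding W-boxes, whose core is TTGAC. In hypoxia, group VII ERF transcription factors are stabilized and induce fermentation and other adaptive genes.

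The total count per sample was between 21307648 and 21554051. The 14 core hypoxia response genes summed to 261 to 346 CPM in NM, 537 to 757 CPM in NF, 823 to 3019 CPM in HM and 2229 to 4970 CPM in HF, so that the hypoxia groups did not overlap the normoxia groups. HM replicate 1 stood apart from HM replicates 2 and 3: 19 flg22 marker and defence output genes summed to 5491 CPM in it, against 1112 and 2240 CPM in the other HM samples and 821 to 1790 CPM in NM. The 4 shoot markers summed to 21330 to 25345 CPM in NF and 21746 to 24097 CPM in HF, with no common direction over the sets. The 6 root markers summed to 4030, 2229 and 2412 CPM in NF replicates 1 to 3 and to 3002, 1419 and 2260 CPM in HF, lower in HF in every set, and 4 of them (PYK10, CASP1, EXPA7 and SCR) were each lower in every set. The root markers thus moved in the same direction as the members from NF to HF. Their part in the results below was not tested.

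Of the 16914 genes with a mean NF count of 50 or more, 1413 were induced at least 1.5 times in every set, and the 123 members were 8.70% of these. A further 236 induced genes met the 0.75 bound in 2 sets, 297 met it in 1 set and 757 in no set. The opposite pattern, with HF at least 1/0.75 of NF in every set, was found for 45 induced genes, which are called boosted below. All 123 members passed the filter on low counts that precedes the edgeR test, as did 20074 genes in all. The members just inside the bound were SARD1, RHA1A and AT4G03450, with HF at 0.748, 0.746 and 0.745 times NF in their highest set. Just outside it lay AT3G48640, which rounds to the bound itself, AT2G20142 at 0.751 times and MYB51 at 0.754 times.

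**Figure D1:**
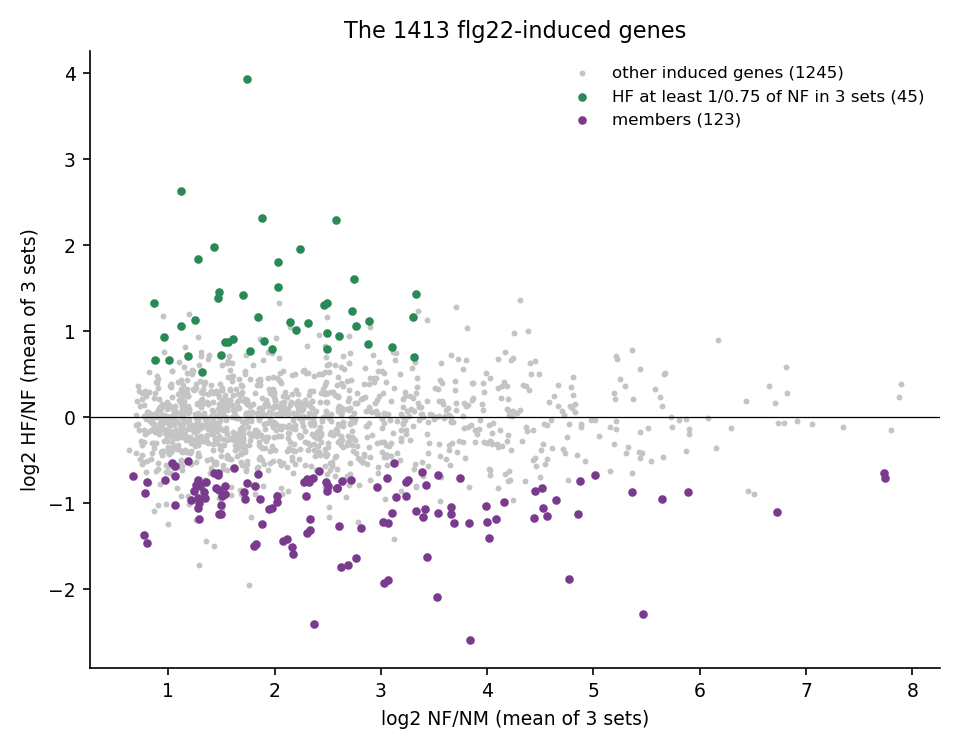
Each point is a gene induced by flg22 in all 3 sets; the x axis gives log2 NF/NM and the y axis log2 HF/NF, both as means of 3 sets of log2(CPM + 0.5). The 123 members (purple) lie between -2.59 and -0.51 on the y axis and over the range of induction from 0.67 to 7.75, and the 45 boosted genes (green) lie above 0.52.

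The 250 bases before the annotated gene start (RefSeq annotation of TAIR10.1) were searched for the W-box core TTGAC on both strands. At least 1 core was present for 85 of 123 members (69.1%), 65.0% of the 1413 induced genes, 71.1% of the boosted genes and 45.4% of all listed genes. Members thus resembled the other induced genes in this feature, and 36.6% of them held 2 or more cores, against 33.3% of the induced and 14.4% of all listed genes. The share with a G-box (CACGTG, both strands) was lower, with 2 members (1.63%) against 84 induced genes (5.94%), 15.6% of the boosted genes and 7.12% of all listed genes. The G-box was 1 of several motifs searched. The share with ACGCGT was lower in members (3 genes, 2.44%) than in induced genes (5.17%), but not lower than in all listed genes (1.81%). For GCCGCC the share was higher in members (6 genes, 4.88%) than in induced genes (2.83%) and all listed genes (1.90%). For AAATATCT it was 6.50% of members (8 genes), 5.31% of induced genes and 4.94% of all listed genes. These letter matches are a description of the windows and not evidence of binding, and no test was made of the differences. The sequences of 5 members are shown because they span the range of W-box cores, from 4 in SARD1 to 0 in LYK4, and include both genes with the largest fall in HF. They are written 5′ to 3′ on the strand of the gene, with TTGAC or its reverse complement GTCAA in capitals, and end at the base before the gene start. The RLP7 window is chr1:17643726-17643975 (plus strand), EXO70H1 chr3:20442651-20442900 (minus strand), SARD1 chr1:27749249-27749498 (minus strand), WRKY30 chr5:8154711-8154960 (minus strand) and LYK4 chr2:10122480-10122729 (minus strand).
RLP7: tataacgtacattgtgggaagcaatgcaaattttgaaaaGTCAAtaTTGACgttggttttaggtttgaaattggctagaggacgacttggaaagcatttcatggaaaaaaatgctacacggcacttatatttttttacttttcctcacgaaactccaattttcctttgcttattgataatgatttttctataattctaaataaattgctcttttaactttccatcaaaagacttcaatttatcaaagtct
EXO70H1: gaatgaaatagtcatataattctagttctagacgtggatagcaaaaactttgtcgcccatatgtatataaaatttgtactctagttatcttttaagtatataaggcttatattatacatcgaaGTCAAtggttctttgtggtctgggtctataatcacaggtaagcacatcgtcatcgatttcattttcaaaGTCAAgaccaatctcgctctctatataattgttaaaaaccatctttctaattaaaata
SARD1: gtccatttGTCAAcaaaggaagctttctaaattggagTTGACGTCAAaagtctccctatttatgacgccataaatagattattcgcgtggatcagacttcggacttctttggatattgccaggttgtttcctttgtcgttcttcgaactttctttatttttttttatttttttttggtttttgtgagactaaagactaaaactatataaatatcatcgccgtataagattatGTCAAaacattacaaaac
WRKY30: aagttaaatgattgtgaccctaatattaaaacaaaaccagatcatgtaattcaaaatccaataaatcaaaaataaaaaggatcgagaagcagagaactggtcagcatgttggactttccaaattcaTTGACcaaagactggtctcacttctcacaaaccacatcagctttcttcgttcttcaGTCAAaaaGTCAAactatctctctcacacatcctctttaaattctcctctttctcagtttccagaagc
LYK4: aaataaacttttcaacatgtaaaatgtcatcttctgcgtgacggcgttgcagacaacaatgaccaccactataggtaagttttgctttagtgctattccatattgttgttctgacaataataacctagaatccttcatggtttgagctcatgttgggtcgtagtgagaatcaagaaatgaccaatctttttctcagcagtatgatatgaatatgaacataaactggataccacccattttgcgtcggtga

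Over the 123 members, NF exceeded NM by a median of 5.35-fold, from 1.59-fold to 215-fold on the CPM + 0.5 scale, which understates the change of genes with few reads. HF stood at a median of 52.0% of NF, from 16.6% to 70.3%, and 54 members were at 50% of NF or lower. The median log2 HF/NF was -0.93, -1.07 and -0.74 in sets 1 to 3, and -0.94 for the mean of the sets. Over all 20074 tested genes the median of that mean was -0.12, so the column sums themselves placed HF slightly lower. With TMM normalization, which shifts log2 HF/NF by 0.28, 0.14 and -0.04 in the 3 sets, 98 genes met the rule, of which 88 were among the 123. WRKY30, AT1G26380, AT1G27020, RLP35, RLP36, NAC042, NAC090, PUB24, RK2, CRK2 and BAP2 are among the 35 members that did not meet it on that scale, with HF/NF above 0.75 in set 1 for 31 of the 35.

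The induction was reduced in HF and in most cases not abolished. HF remained a median of 2.37-fold above NM, 72 members were still 2-fold or more above NM, and all HF samples were above all NM samples for 69 members. The median member kept 55.8% of its log2 induction. For 5 members, EXO70H1, AT1G21590, AT4G35940, CML43 and AT5G48660, HF was at or below NM on average, and for AT4G35940 all HF samples (7.34, 8.26 and 11.7 CPM) lay below all NM samples (12.6, 15.2 and 13.6 CPM). The rule required HF below NF within each set. All HF samples were below all NF samples for 71 members, while the samples of the other 52 overlapped.

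**Figure D2:**
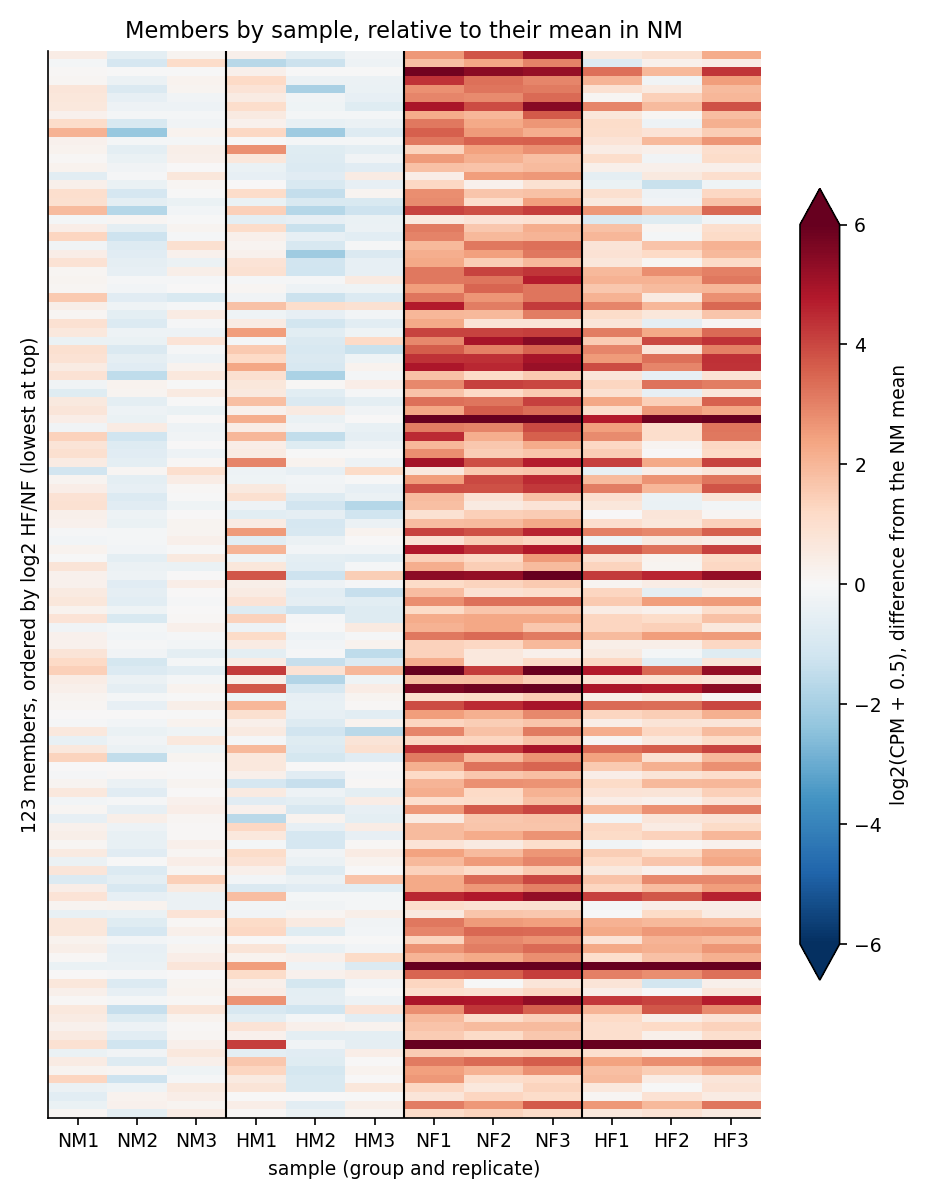
Heat map of log2(CPM + 0.5) of the 123 members (rows, lowest HF/NF at the top) in the 12 samples (columns), as the difference from the gene's mean over NM. The medians over members were 2.28 to 2.71 in the NF samples, 0.93 to 1.88 in the HF samples and -0.59 to 0.50 in the HM samples, with HM replicate 1 the highest of HM.

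Genes were grouped by their product descriptions, and the receptor-like proteins (RLPs) had the largest share of members among the 11 groups. RLPs are cell-surface receptors with leucine-rich repeats outside the cell and no kinase domain, which signal together with the receptor kinases SOBIR1 and BAK1. Of 16 RLP genes induced by flg22, 10 (62.5%) were members, against 8.70% of all induced genes, and none was boosted. These were RLP3, RLP7, RLP12, RLP30, RLP31, RLP35, RLP36, RLP38, RLP52 and RLP54, with HF at 16.6% to 59.3% of NF. RLP7 had 4.01, 9.58 and 26.3 CPM in the NF samples and 0.650, 0.892 and 2.99 CPM in the HF samples. Its counts in NM were 11, 0 and 7, so the HF samples of RLP7 were nearer to NM than to NF, with no overlap of NF and HF. RLP31 had 78.8, 97.2 and 155 CPM in NF and 31.0, 40.1 and 67.0 CPM in HF, against 10.5 to 22.8 CPM in NM. RLP54 had 199, 205 and 266 CPM in NF and 111, 86.6 and 144 CPM in HF, against 40.9 to 64.2 CPM in NM. For both genes the 3 groups were fully separated, with HF between NM and NF. RLP30, a receptor for a fungal protein elicitor, differed evenly between sets, with 31.0, 36.0 and 40.6 CPM in NF and 16.8, 21.4 and 21.1 CPM in HF. The other members were at 37.4% (RLP38), 40.8% (RLP52), 47.8% (RLP12), 48.3% (RLP35), 56.3% (RLP36) and 59.3% (RLP3) of NF.

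**Figure D3:**
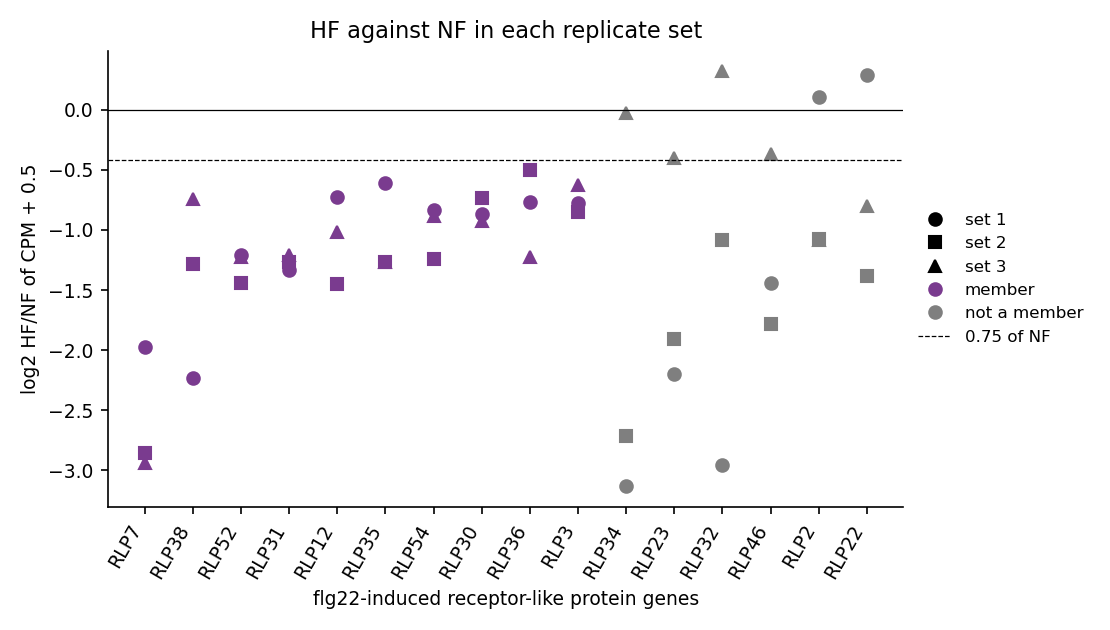
log2 HF/NF of CPM + 0.5 for the 16 RLP genes induced by flg22, in each of the 3 replicate sets (symbols); members are purple and the dashed line marks 0.75 of NF. All points of the 10 members lie below that line by the rule, and each of the 6 other genes has at least 1 set above it.

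The 6 induced RLP genes that were not members each missed the bound in 1 set. RLP34 had HF at 0.114 and 0.152 times NF in sets 1 and 2 and at 0.983 times in set 3. RLP23, the receptor of an NLP peptide, was at 0.218, 0.266 and 0.759 times. For RLP32, RLP46, RLP2 and RLP22 the lowest set was at 0.129, 0.291, 0.471 and 0.383 times NF and the highest at 1.25, 0.777, 1.08 and 1.22 times. For 26 tested RLP genes that were not induced in every set, and so could not be members, 12 (46.2%) were lower in HF than in NF in every set. Among all tested genes not induced in every set the share was 22.5%, and with TMM normalization the shares were 38.5% and 16.6%. Hypoxia without flg22, which uses other samples, gave 20 of all 42 tested RLP genes (47.6%) lower in HM than in NM in every set, against 31.7% of all tested genes. With TMM these shares were 35.7% and 20.2%. In edgeR's test of HM vs NM, 5 of the 42 genes (11.9%) were lower and 0 higher at an unadjusted p under 0.05, against 2.05% and 3.88% of all tested genes, and none had an adjusted p under 0.05 (smallest 0.664). With TMM, 8 of the 10 RLP members met the rule, and no enrichment test was made. RLP genes often lie in clusters of similar sequence, as RLP30 and RLP31 do, and how reads were shared between them by the counting is not known.

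Receptor-like and other protein kinases gave the largest number of members, 25 of 186 induced genes (13.4%). They include the pattern receptor EFR, which recognizes a peptide of bacterial elongation factor Tu, and LYK4, a LysM receptor-like kinase that takes part in chitin perception. EFR had 24.9, 25.7 and 35.7 CPM in NF and 10.9, 15.9 and 22.6 CPM in HF. In NM it had 7.30, 8.76 and 16.0 CPM and in HM 9.47, 5.81 and 17.9 CPM, so that HF was below NF in every sample but overlapped both mock groups. LYK4 had 68.2, 97.0 and 96.4 CPM in NF and 28.8, 54.7 and 57.3 CPM in HF. Its HF samples lay wholly between NF and the mock samples, which were at 5.83 to 16.9 CPM. Among 22 pattern receptor and co-receptor genes, 13 were induced, and EFR and LYK4 were the only members. Over all induced genes 8.70% were members. The co-receptor genes BAK1 and SOBIR1 were induced without meeting the bound. FLS2 was not induced 1.5 times in every set and is no member, with 93.4, 89.3 and 75.1 CPM in NF and 32.2, 38.4 and 46.1 CPM in HF.

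Over all 25 kinase members HF stood at 30.3% to 70.3% of NF. CRK12, a cysteine-rich receptor-like kinase, had 20.4, 10.8 and 14.1 CPM in NF and 4.55, 1.36 and 9.70 CPM in HF. At the other end CRK2, of the same family, was at 55.0, 63.7 and 54.1 CPM in NF and 39.3, 45.4 and 36.4 CPM in HF, the smallest fall of all members. The wall-associated kinase-like genes WAKL4 and WAKL7 were at 62.9% and 68.9% of NF, and the neighbouring receptor kinase genes RK1 and RK2 at 42.9% and 63.5%. MAPKKK15, a MAP kinase kinase kinase, had 9.65, 19.4 and 15.6 CPM in NF and 4.92, 6.15 and 6.49 CPM in HF, against 1.07 to 1.44 CPM in NM. Of 24 early pattern-triggered signalling genes 13 were induced and 0 were members, where 8.70% of all induced genes were members, so a count of 0 among 13 is near that share.

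Intracellular immune receptors of the NBS-LRR class gave 5 members of 41 induced genes (12.2%). Of 122 tested NBS-LRR genes, members included, 47.5% were lower in HF than in NF in every set. That share was 59.5% for the 42 tested RLP genes, members included, and 23.0% for all tested genes. Members are lower in every set by the rule, which raises the family shares. Without the genes induced in every set, it was 46.2% of RLP genes and 22.5% of all tested genes, and is not given here for NBS-LRR genes. AT5G41750, of the TIR-NBS-LRR class, had 141, 132 and 263 CPM in NF and 62.7, 81.1 and 133 CPM in HF. It had 2.29 to 3.59 CPM in NM but 44.7, 0.944 and 9.14 CPM in HM, where replicate 1 was high. AT4G11170 of the same class was at 44.2% of NF, and AT1G63350, of the CC-NBS-LRR class, at 63.2%. The leucine-rich repeat protein gene AT1G33600 had the most reads of all members in NF. Its levels were 1024, 1228 and 1435 CPM in NF, 624, 806 and 953 CPM in HF and 67.4 to 163 CPM in NM, with no overlap between these 3 groups.

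The transcription factor group contributed 7 members of 76 induced genes (9.21%). By product description this group also took in VQ motif genes, which are not themselves classed as transcription factors. WRKY30 had the highest fold induction of the members on the CPM + 0.5 scale, at 215-fold, with a member outside the named families at 213-fold. It had 215, 238 and 346 CPM in NF against 0.418, 0.466 and 1.53 CPM in NM. In HF it had 154, 125 and 211 CPM, so all HF samples were below NF and far above NM. The bHLH gene AT5G56960 was at 49.8, 90.1 and 77.9 CPM in NF and 17.5, 37.6 and 52.3 CPM in HF. SARD1, counted here with the 5 calcium and channel members from its product description, is a calmodulin-binding-like protein that activates genes of salicylic acid synthesis. It had 50.9, 9.90 and 27.0 CPM in NF and 15.8, 4.27 and 20.1 CPM in HF. The NF and HF samples of SARD1 overlapped, with the highest level of both mock groups in replicate 1 as well. MYB122, a regulator of indole glucosinolate genes, was at 3.12, 8.51 and 7.04 CPM in NF and 1.02, 3.94 and 3.13 CPM in HF. NAC042 and NAC090 were at 59.8% and 46.9% of NF, the VQ motif gene AT1G78410 at 48.1% and the GRAS gene AT1G07520 at 53.8%.

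Of these genes, SARD1, MYB122 and WRKY30 were on the pathway lists. SARD1 was the only member among 14 genes of salicylic acid synthesis and signalling, of which 9 were induced, and MYB122 the only member among 15 genes of indole glucosinolate and camalexin synthesis, of which 10 were induced. WRKY30 was the only member among 19 flg22 marker and defence output genes, of which 18 were induced and 2 boosted. Of 18 jasmonate and ethylene genes 11 were induced and 0 were members. Of the 14 core hypoxia response genes 3 were induced by flg22, and all 3 were boosted, as were 45 of all 1413 induced genes.

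**Figure D4:**
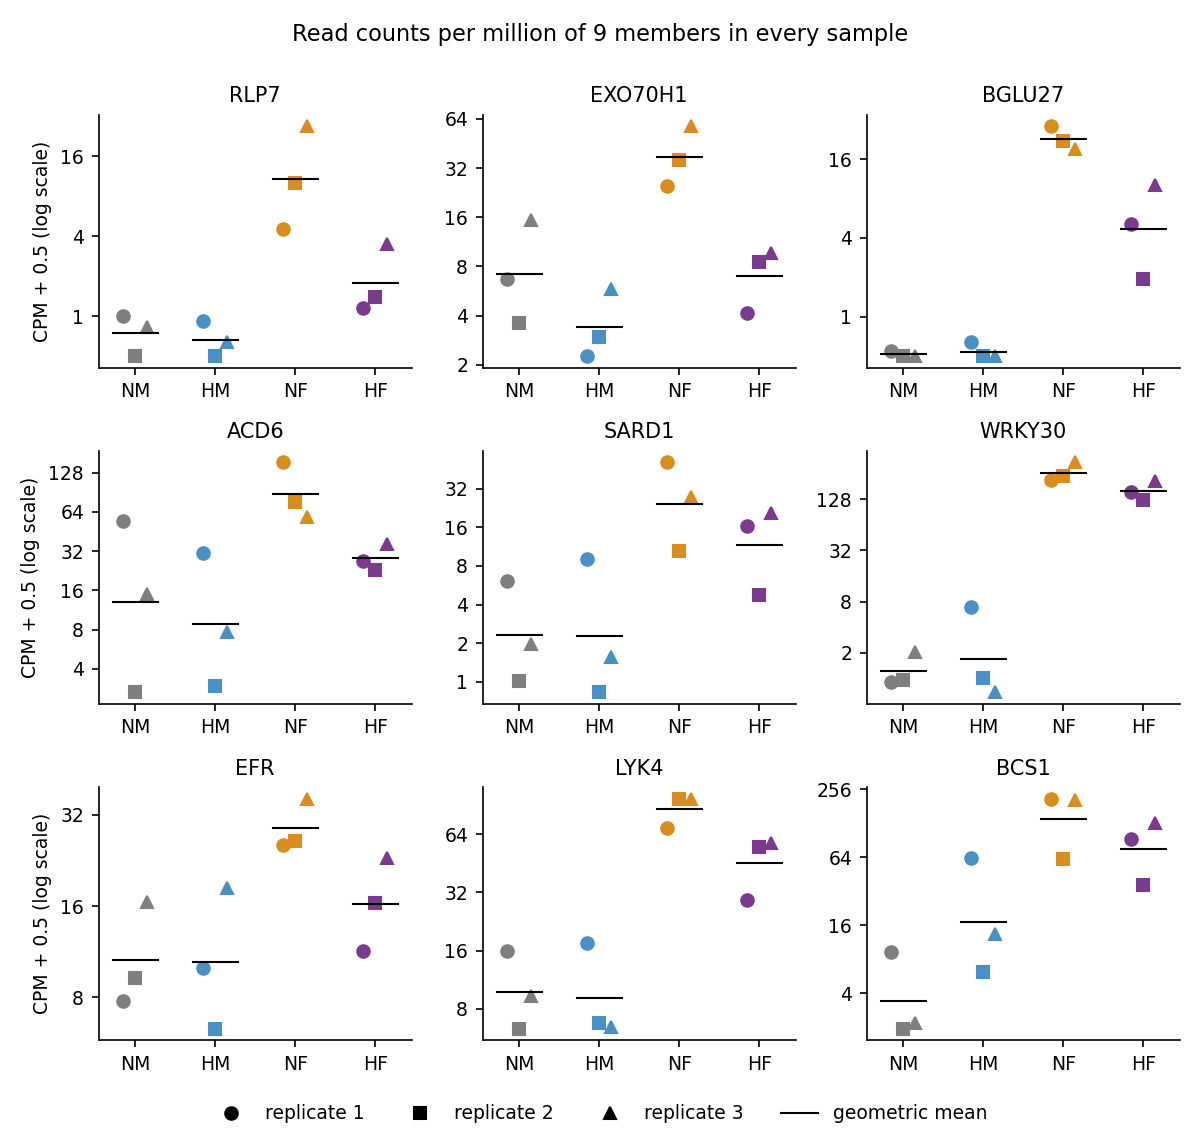
CPM + 0.5 (log scale) of 9 members in every sample, with the replicate number as symbol and the geometric mean of each group as a line. EXO70H1 returns to its NM level in HF, whereas WRKY30 at 125 to 211 CPM and LYK4 at 28.8 to 57.3 CPM remain above every NM sample.

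Membrane traffic genes gave 4 members of 21 induced (19.0%). EXO70H1 encodes a subunit of the exocyst, the complex that tethers secretory vesicles to the plasma membrane. It had 24.5, 35.1 and 57.1 CPM in NF and 3.67, 8.03 and 9.24 CPM in HF, against 6.18, 3.12 and 14.9 CPM in NM and 1.76, 2.46 and 5.35 CPM in HM. Within each set EXO70H1 was lower in HM than in NM and lower in HF than in NF, and its HF samples overlapped NM. The small GTPase genes RABA1e and RABA4C were at 40.2% and 59.3% of NF and the dynamin-like gene DL1B at 54.8%. The calcium, calmodulin and ion channel group held 5 members of 53 induced (9.43%), among them the cyclic nucleotide-gated channel CNGC11 at 36.8% and the glutamate receptor-like channel GLR2.9 at 42.5% of NF. Among 5 transporter members, OPT2 of the oligopeptide transporter family was at 29.9% and the cation exchanger CHX17 at 35.2%. OPT2 had few reads, with 2.05, 1.63 and 6.44 CPM in NF and 0.371, 0.0939 and 1.45 CPM in HF.

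Among the remaining members, several with large falls encode enzymes or ankyrin proteins. BGLU27, a beta-glucosidase, was nearly silent in NM with counts of 1, 0 and 0. Its counts were 600, 460 and 399 in NF and 100, 31 and 207 in HF, and all HF samples were below NF. ACD6, a membrane ankyrin protein that promotes salicylic acid-dependent defence, had 153, 75.2 and 58.3 CPM in NF and 26.6, 22.3 and 35.9 CPM in HF. In NM it ranged from 2.14 to 54.3 CPM, so that ACD6 in HF overlapped NM but not NF. Another ankyrin repeat gene, AT4G03450, was at 12.4, 5.81 and 4.24 CPM in NF and 2.09, 0.0469 and 3.03 CPM in HF, with a much smaller fall in set 3. The lipase-like gene DLAH was at 27.1% of NF, the leucine-rich repeat gene AT2G15042 at 26.3%, the uncharacterized genes AT1G51670 and AT1G59865 at 26.9% and 32.5%, and the alpha carbonic anhydrase gene ACA2 at 33.1%.

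Among the 12 members with the most reads in NF, HF was at 32.1% (ACD6) to 64.3% (AT1G33600) of NF. AT1G26380, a berberine bridge enzyme-like oxidase of indolic metabolism, had 279, 733 and 539 CPM in NF and 183, 396 and 391 CPM in HF. CKX4, which degrades cytokinin, had 115, 74.4 and 106 CPM in NF and 70.3, 14.6 and 75.9 CPM in HF, with the lowest HF value in replicate 2. AT1G27020, AT1G09932 and AT3G51660 were at 58.7%, 45.2% and 57.3% of NF. PUB24, a U-box ubiquitin ligase that restrains pattern-triggered immunity, was at 55.2% of NF, and the metacaspase gene MC8 at 54.9%. BCS1 (AT3G50930), an AAA ATPase of the mitochondrial outer membrane, had 211, 61.7 and 206 CPM in NF and 92.1, 36.2 and 129 CPM in HF.

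Hypoxia without flg22 was examined next, since the HM samples were not used to choose the members. NM was used, and as it had to be low against NF this can only push HM vs NM upward. No member passed edgeR's quasi-likelihood test of HM vs NM (adjusted p under 0.05 and an absolute log2FC above 0.585), where percent called over all tested genes was 0.0 in either direction. The smallest adjusted p of a member was 0.291 (BAP2). At an unadjusted p under 0.05, 9 members (7.32%) were higher, against 3.88% of all tested genes, and 3 (2.44%) were lower, against 2.05%. DESeq2 on all samples called 2 members higher (0.612% of all genes it tested) and 0 lower (0.0771%), and DESeq2 on the 2 groups called 1 lower (0.11%) and 0 higher (0.53%). HM and NM were treated as paired by replicate number. With that number as a block edgeR also called 0 members, against 0.0598% of all tested genes higher and 0.00498% lower. At an unadjusted p under 0.05 that fit gave 10 members higher and 11 lower, against 7.85% and 5.86% of all tested genes.

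The members thus showed no common shift from NM to HM. Their median edgeR log2FC in HM vs NM was 0.08, against 0.01 over all tested genes, and without HM replicate 1 it was -0.48. By set, the median log2 HM/NM was 0.15, -0.14 and -0.29. The summed level of the members was 1032, 520 and 864 CPM in NM replicates 1 to 3 and 1481, 438 and 727 CPM in HM replicates 1 to 3. HM was therefore higher than NM in set 1 and lower in sets 2 and 3. HM was below NM in every set for 23 members (18.7%), against 31.7% of all tested genes, and above NM in every set for 8 (6.50%), against 13.0%. The 1413 induced genes, from which the members were drawn, were more often higher in HM. Of these, 5.38% were below and 36.5% above NM in every set. Their median log2 HM/NM for the mean of the sets was 0.33, against -0.07 for the members. This difference was not tested. Across the 123 members, log2 HM/NM and log2 HF/NF, which share no sample, were weakly related, with a Pearson r of 0.19 and a Spearman rho of 0.21 over genes, which are not independent replicates. Over the 1413 induced genes r was 0.61 and over all tested genes 0.65, but the members were chosen to lie in a narrow range of HF/NF.

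**Figure D5:**
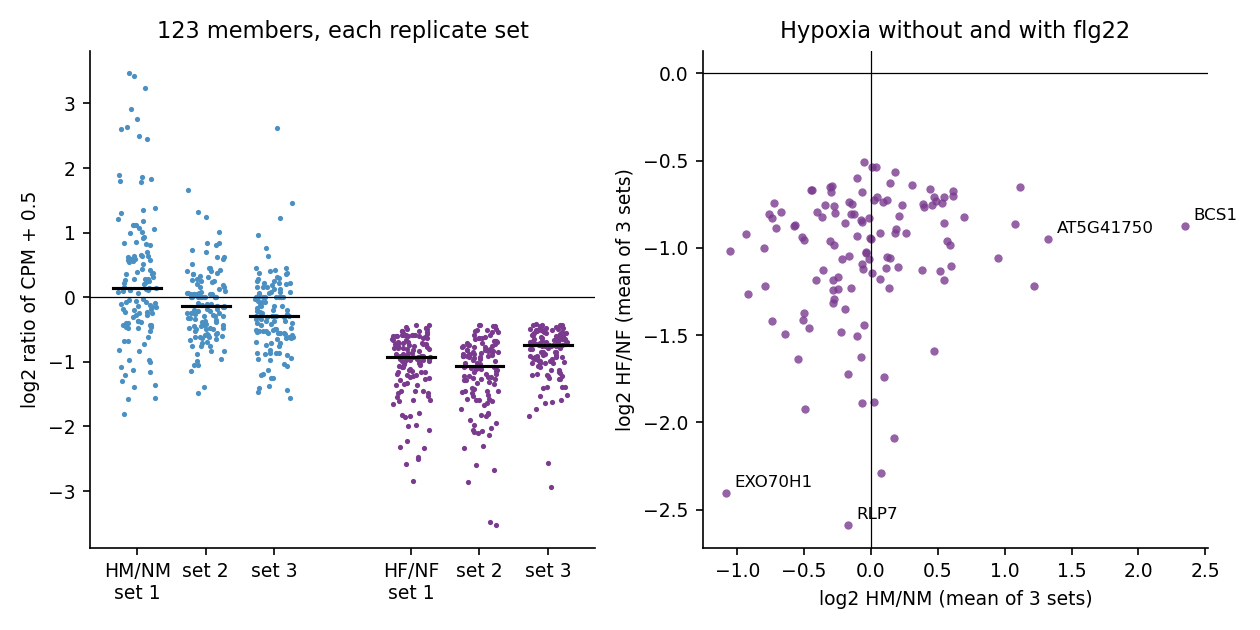
Left, log2 HM/NM (blue) and log2 HF/NF (purple) of CPM + 0.5 for the 123 members in each replicate set, with the median as a line; right, the means of 3 sets for each member. The medians of HM/NM lie at 0.15, -0.14 and -0.29 on both sides of 0, and EXO70H1 and BCS1 mark its extremes at -1.08 and 2.35.

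A few members differed from this in HM. All HM samples were above all NM samples for 2 members (1.63%; 3.09% of all tested genes), BAP2 and AT3G28580, and below them for 4 members (3.25%; 7.03% of all tested genes), AT1G05670, AT2G23200, AT4G35940 and SAUR9. AT3G28580, of the same AAA ATPase family as BCS1, had counts of 9, 2 and 4 in NM and 41, 21 and 18 in HM. Its edgeR log2FC was 2.52 ± 0.60 (SE, n = 3 per group, adjusted p = 0.377), and DESeq2 gave an adjusted p of 0.0135 on all samples and 0.0849 on the 2 groups. BCS1 had 8.74, 1.44 and 1.67 CPM in NM and 62.2, 5.63 and 12.8 CPM in HM, and was higher in HM in every set although the groups overlapped. Its edgeR log2FC was 2.90 ± 0.92 (SE, n = 3 per group, adjusted p = 0.602), and DESeq2 gave an adjusted p of 0.0447 on all samples and 0.114 on the 2 groups. Without HM replicate 1, the highest BCS1 sample of HM, the log2FC of BCS1 was 1.45. Both ATPase genes were thus called only by DESeq2 with all samples in the fit, among the edgeR and DESeq2 fits named here. AT2G23200, a protein kinase gene, had 19.0, 13.8 and 16.9 CPM in NM and 9.28, 6.69 and 9.40 CPM in HM. Its edgeR log2FC was -0.85 ± 0.24 (SE, n = 3 per group, adjusted p = 0.55), and DESeq2 gave an adjusted p of 0.167 on all samples and 0.0164 on the 2 groups. With the replicate block in edgeR the adjusted p was 0.187 for AT2G23200, 0.079 for AT3G28580 and 0.118 for BCS1.

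BAP2, which restrains programmed cell death together with the copine BON1, had counts of 1, 0 and 1 in NM and 14, 3 and 5 in HM, too few for a stable fold. With flg22 the order was the reverse, at 5.55, 5.81 and 8.95 CPM in NF and 3.81, 3.19 and 4.76 CPM in HF. AT1G05670, a pentatricopeptide repeat gene, had 6.55, 4.66 and 5.61 CPM in NM and 4.08, 2.88 and 3.26 CPM in HM. With flg22 it had 20.0, 19.7 and 22.4 CPM in NF and 7.01, 7.09 and 6.91 CPM in HF. For AT1G05670, HM lay below NM and HF below NF in all samples. AT4G35940 had 8.91, 9.76 and 10.2 CPM in HM, and SAUR9, an auxin-responsive gene with few reads, had 0.930, 0.419 and 0.650 CPM in NM and 0.232, 0.279 and 0 CPM in HM.

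The flg22 response within hypoxia was taken from HF vs HM. HF was used by the rule and had to be low against NF, which pushes HF vs HM downward. The rule also chose genes induced by flg22 in normoxia. Higher shares than over all tested genes therefore follow in part from the choice and are a description. In edgeR's test 37 members (30.1%) were upregulated, against 3.84% of all tested genes, and 0 were downregulated, against 0.543%. At an unadjusted p under 0.05, 90 members (73.2%) were higher, against 9.84% of all tested genes, and 0 were lower, against 7.25%. DESeq2 also called 0 members lower, both on all samples (1.8% of all genes) and on the 2 groups (1.02%), and called 72 (5.45%) and 61 (5.26%) higher. The median log2FC of the members was 1.86. The induced genes, from which the members were drawn, are a closer comparison. On the CPM + 0.5 scale HF was above HM in every set for 83.7% of members and 91.7% of induced genes. The median log2 HF/HM for the mean of the sets was 1.43 and 1.60. By set it was 0.78, 1.49 and 2.01 for members and 0.80, 2.14 and 1.80 for induced genes. Members were thus lower in sets 1 and 2 and higher in set 3. These differences were not tested. All HF samples were above all HM samples for 71 members (57.7%), against 8.08% of all tested genes, and below them for 0, against 19.6%. The count of 37 rested on single libraries: it was 66 without HM replicate 1, 9 without HM replicate 2, 1 without HM replicate 3, 15 without HF replicate 2 and 8 without HF replicate 3.

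Among the members upregulated in HF vs HM were LYK4, with a log2FC of 2.47 ± 0.46 (SE, n = 3 per group, edgeR adjusted p = 0.0179), and WRKY30, with 6.31 ± 1.05 (SE, adjusted p = 0.013). MAPKKK15 had the lowest adjusted p of the members, 0.00598, with a log2FC of 2.57 ± 0.33 (SE). PUB24, DLAH, NAC042, NAC090, GLR2.9, WAKL4, WAKL7, RK2, AT1G33600 and 4 RLP genes (RLP3, RLP31, RLP35 and RLP54) also passed. EFR, with a log2FC of 0.74 ± 0.43 (SE, adjusted p = 0.445), did not pass, nor did EXO70H1 at 1.29 ± 0.63 (SE, adjusted p = 0.337), RLP7 at 3.14 ± 1.14 (SE, adjusted p = 0.173), SARD1 at 2.19 ± 1.05 (SE, adjusted p = 0.325) or ACD6 at 1.29 ± 0.94 (SE, adjusted p = 0.561). For RLP7 all HF samples (0.650 to 2.99 CPM) were nevertheless above all HM samples (0 to 0.418 CPM).

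The members were also compared by position and gene structure, which the rule did not use. They lay on all 5 chromosomes in numbers (31, 17, 22, 22 and 31 on chromosomes 1 to 5) close to the distribution of tested genes. There were 10 pairs of members within 20 kb, involving 19 members, and 5 pairs were direct neighbours. Among these pairs were RK1 and RK2, SARD1 and AT1G73810, OPT2 and AT1G09932, and PUB24 and AT3G11850. RLP30 and RLP31 lay 2588 bases apart with 1 gene between them. In the annotation 43 members (35.0%) had a single exon, against 28.6% of the induced and 15.6% of the tested genes, and the median coding length was 1527 bases, against 1206 and 1170. Reads of neighbouring or similar genes, such as RK1 and RK2, may have been shared by the counting.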

How the data were processed

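Polyadenylated RNA of 12 samples (4 groups of 3 biological replicates) was sequenced as paired reads on the BGI platform. Reads were filtered with SOAPnuke and mapped with HISAT, and the submitters' processing notes name the genome build TAIR10. The authors deposited a table of expected counts per gene for 23396 genes, of which 2.30% of the values are not whole numbers. The counting tool and its use of strand are not given in the sources used here. Group-mean columns were not used, and 0 columns belonged to no sample of the series.

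CPM used column sums. The authors' expected counts were rounded and tested with edgeR 4.0.16 in R 4.3.3 (quasi-likelihood, TMM, filterByExpr with a minimum count of 10, all samples in 1 fit, Benjamini-Hochberg over 20074 genes). Differentially expressed genes had an adjusted p under 0.05 and an absolute log2FC above 0.585. Alternatives used DESeq2 1.42.0, other scalings and filters, a replicate block and each replicate left out. The fit was tested on counts simulated for HM vs NM, where 200 of 20074 genes carried a log2 change of 2, and it called 157 of them with 5 false calls. The simulation held no replicate-set effect, and its changed genes were drawn above an expression floor. In the real data edgeR called 0 of the 14 core hypoxia response genes in HM vs NM, at a median log2FC of 3.28. The simulated share called therefore does not carry over to the real comparison, where the lack of a call says little. Same-numbered NM and HM samples deviated together (r of at least 0.264 in every pair), so they were treated as paired in the block. Same-numbered NM and NF samples also did (r of at least 0.314), but HM and HF samples did not in every pair. Replicate 3 did not correlate best with its own number. HM replicate 3 had an r of 0.286 with NM replicate 2 and 0.264 with NM replicate 3. NF replicate 3 had an r of 0.427 with NM replicate 2 and 0.314 with NM replicate 3. NF and HF samples, which the rule compares by number, had an r of 0.541, 0.514 and -0.111 in sets 1 to 3. The NF and HF sets of the rule thus rest on the replicate numbers, and set 3 showed no such pairing. The pairing of NM with HM comes from this check and not from the labels.

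All IDs matched the RefSeq annotation of TAIR10.1, the source of coordinates, names and the 250-base promoter windows. Figures were drawn with Python 3.11.15 and matplotlib 3.10.9. The members, gene lists and tests were chosen with earlier results of these data known. Named genes are the 12 members with the lowest HF/NF, the 12 with the most reads in NF, members on a gene list, members that changed most in HM vs NM, the 3 genes nearest each side of the bound, and examples of product families. Levels were not compared between genes, since CPM is not scaled by gene length.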

Additional observations from a re-analysis of the deposited data

Results flagged for a closer look

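BAP2 differed in opposite directions with and without flg22. All HM samples were above all NM samples, with a mean log2 HM/NM of 0.62 over the 3 sets on the CPM + 0.5 scale, while all HF samples were below all NF samples, as the choice of members requires within each set. The difference between these effects was not tested, and the NM and HM values rest on 0 to 14 reads per sample.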

How the results depend on the processing

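The number of genes that met the rule was 98 with TMM and 91 with DESeq2 size factors, and 88 and 81 of these were among the 123. It was 63 with NF at least 2 times NM and HF at most 2/3 of NF, 272 with HF at most 0.9 times NF, 471 with group means in place of the 3 sets, 19 where the groups had not to overlap, and 156 to 316 with 1 replicate set left out. Leaving out a set or using group means relaxes both the induction and the HF bound. The median log2 HF/NF of the 123 members was -0.84 with TMM and between -1.02 and -0.90 with 1 set left out.

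For HM vs NM, the 0 genes called among all tested genes became 161 with DESeq2 on all samples, 146 with DESeq2 on the 2 groups, 13 with the replicate block and 0 to 55 with 1 sample left out. Of the members, 2 were called with DESeq2 on all samples and 1 on the 2 groups. None was called with the replicate block or with any sample left out, where the members' median log2FC lay between -0.48 (without HM replicate 1) and 0.26. The replicate block changed no member call in HM vs NM. For HF vs HM, the 37 members became 72 with DESeq2 on all samples, 61 with DESeq2 on the 2 groups, 10 with edgeR on the 2 groups, 78 with the replicate block and 1 to 66 with 1 sample left out. The cause of these differences was not tested. Same-numbered HM and HF samples had an r of 0.465, 0.425 and -0.047 in sets 1 to 3, so this block result is only a count. For AT1G05670, AT2G23200, BAP2, AT3G28580, BCS1, AT4G35940 and SAUR9, the genes refitted under the alternatives, the direction in HM vs NM was kept in all of those run.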
